A study of Homo sapiens with 6 samples.

Results

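NeuroD1 was listed at 460 regions of H82 cells that had no counterpart in H524 cells and lay on the histone mark H3K4me3. They are the H82-only marked regions described here. H82 and H524 are established human small cell lung cancer lines. In H82 and in H524, chromatin from untreated cultures in RPMI medium with fetal bovine serum was immunoprecipitated with antibodies against NeuroD1 and H3K4me3 and sequenced, with 1 library per antibody and line and 1 input library per line without antibody, which was not analysed here. The regions were chosen from the peak lists themselves. Each is a NeuroD1 region of H82 that shared no base with any NeuroD1 region of H524 and at least 1 bp with an H3K4me3 region of H82 or H524. Of 3854 NeuroD1 regions in H82, 1788 (percent of the list: 46.4) had no counterpart in H524 and 1218 (31.6) lay on H3K4me3 of either line. The 460 that met both conditions made up 25.7% of the H82-only regions (exact Clopper-Pearson 95% interval 23.7 to 27.8). The 4 lists together held 61250 regions.

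NeuroD1 is a basic helix-loop-helix transcription factor of neuronal and endocrine differentiation, and it pairs with E-proteins to bind E-box sequences in DNA. Its high expression defines a molecular subtype of small cell lung cancer to which both lines belong. H3K4me3 marks the nucleosomes around active or poised transcription start sites and is used as a sign of promoters.

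No group had a replicate, so the spread between samples is not known and no p-value is given. Intervals for shares are exact Clopper-Pearson intervals and those for differences between shares are Newcombe intervals, both at 95%. They cover counting error only, treat regions as independent and ignore the depth of each library, which is unknown from the lists. The authors' score, whose unit the lists do not give, was read as a −log10 q-value from its lowest values. It was used to rank and describe regions within a list and, in an alternative, to leave out low ones. All coordinates are in the build hg19. The H524 NeuroD1 list was the longer one, with 20593 regions. A region missing from it was therefore missing from a list of greater length.

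Membership rested on presence in and absence from the lists, so scores and widths are given as a description. The H82-only marked regions were mostly modest entries of the NeuroD1 list. Their scores had a median of 3.16, a 25th percentile of 2.07 and a 75th of 4.64, and reached from 1.31 to 44.9. The H82 list was cut by score into 4 bins of nearly equal size, with 944 regions in the smallest and 984 in the largest. The highest held 70 of the 460 regions (15.2%) and the lowest 147 (32.0%). A score below 2 was held by 107 regions (23.3%), against 76 of the 758 marked H82 regions shared with H524 (10.0%). Such a score was equally frequent in H82-only regions without the mark (23.3%), and was held by 17.4% of the whole H82 list. The shared marked regions had a median score of 4.65. The 1328 H82-only regions without the mark had a median score of 3.13, close to that of the marked ones. The median width was 411 bp, against 478.5 bp for shared marked regions and 379 bp for H82-only regions without the mark. Several summits were listed in 18 of the 460 (3.91%), against 79 of the 758 shared ones (10.4%). The share was 3.61% in H82-only regions without the mark and 5.71% over the whole H82 list.

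The mark under these regions was largely that of H82, as it was under shared marked regions. H3K4me3 of H82 overlapped 439 of the 460 regions (95.4%, 93.1 to 97.2), and H3K4me3 of H524 overlapped 176 (38.3%, 33.8 to 42.9). H82 H3K4me3 was also under 693 of the 758 shared marked regions (91.4%), a difference of 4.01 points (1.09 to 6.71). It was under 1132 of all 1218 marked H82 NeuroD1 regions. By line, the mark of H82 alone was under 284 regions (61.7%, 57.1 to 66.2), that of both lines under 155 (33.7%, 29.4 to 38.2) and that of H524 alone under 21 (4.57%, 2.85 to 6.89). Among all 1218 marked H82 NeuroD1 regions, shared ones included, the percent on H524 H3K4me3 was 50.3. It was 57.7% (54.0 to 61.2) in the 758 shared ones, so that the H82-only regions were lower by 19.4 points (difference −19.4, interval −24.9 to −13.6). Both groups had to lie on the mark of 1 line or the other. Among the regions on H82 H3K4me3, compared within 4 bins of the width of that mark, the difference averaged −17.5 points. The same comparison on chromosome 1 gave 34.1% of 88 H82-only and 52.7% of 91 shared regions, and on the other chromosomes 39.2% of 372 and 58.3% of 667.

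**Figure D1:**
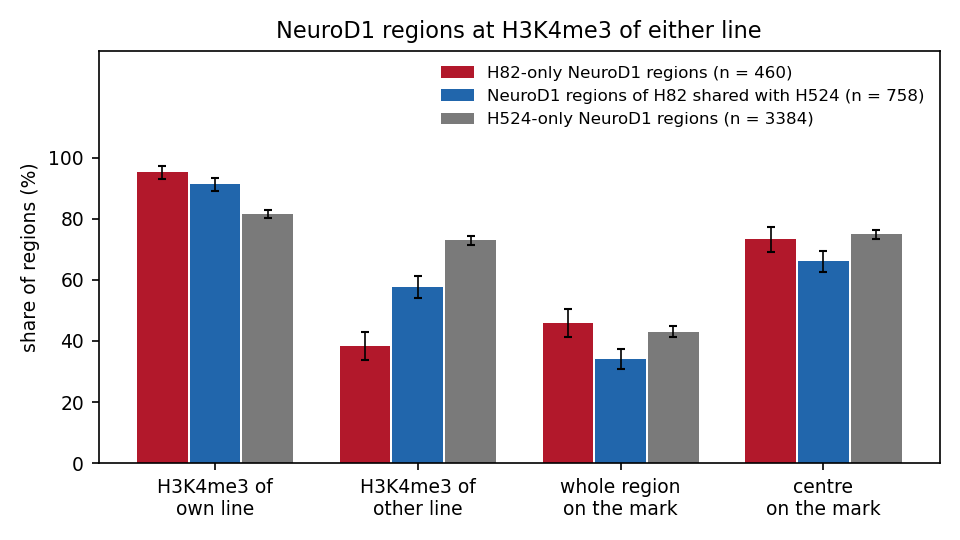
Share of marked NeuroD1 regions (y axis, percent) with H3K4me3 of their own line, with H3K4me3 of the other line, whole on the mark and with their centre on it, for 460 H82-only, 758 shared and 3384 H524-only regions. Bars are shares and lines are exact 95% intervals. The H82-only regions have the lowest share on the mark of the other line, 38.3%.

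A gap of like size between single-line and shared regions was found in H524. H3K4me3 of the other line lay under 38.3% of the H82-only and 57.7% of the shared regions of H82, the difference of −19.4 points given above. It lay under 2469 of the 3384 H524-only regions at the mark (73.0%, 71.4 to 74.5) and under 747 of the 825 shared marked regions of the H524 list (90.5%, 88.3 to 92.5), a difference of −17.6 points (−20.0 to −14.9). Between the lines, the H82-only regions were 34.7 points below the H524-only ones (difference −34.7, −39.3 to −29.9), and the shared regions of H82 were 32.9 points below those of H524 (difference −32.9, −36.9 to −28.8). The difference between the lines was thus about as large in shared regions, and the low share on the mark of the other line is no trait of the H82-only regions alone. The H524 list is longer, and how far its length bears on the difference between the lines was not tested.

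H82-only regions were least often on H524 H3K4me3 in the highest of the 4 score bins. From the lowest bin to the highest, the share was 41.5%, 43.5%, 35.2% and 25.7% of 147, 138, 105 and 70 H82-only regions. In shared marked regions it was 66.4%, 53.9%, 56.1% and 56.9%. The difference between H82-only and shared regions was −24.9 points (−35.8 to −13.0) in the lowest bin, −10.5 points (−21.6 to 1.03) in the second, −20.9 points (−31.8 to −9.00) in the third and −31.2 points (−41.6 to −18.5) in the highest. Without chromosome 8, which holds several of the highest scores, the highest bin gave 29.5% of 61 H82-only and 57.3% of 281 shared regions, a difference of −27.8 points (−39.2 to −14.1).

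**Figure D2:**
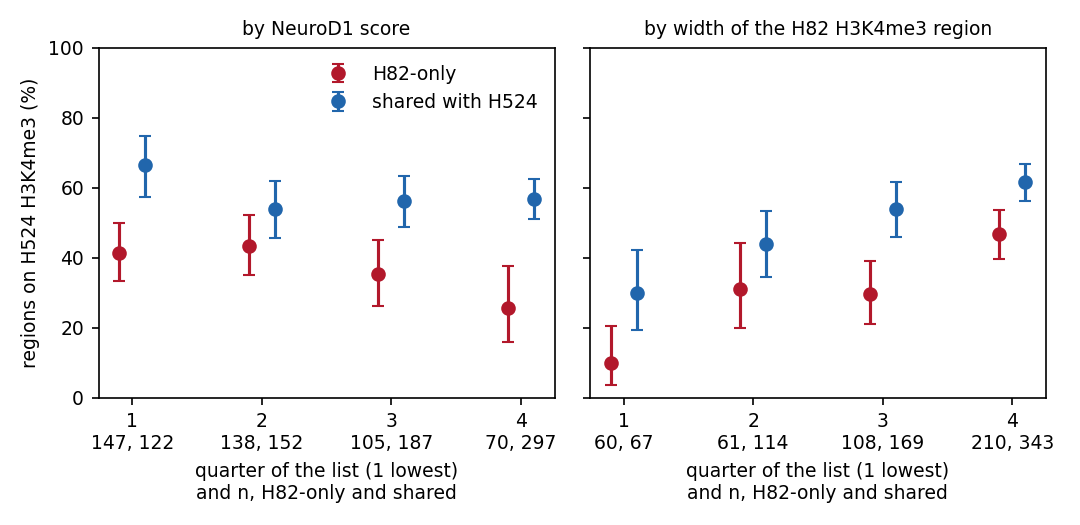
Share of H82 NeuroD1 regions on H3K4me3 of H524 (y axis, percent) for H82-only and shared regions, in 4 bins of nearly equal size of the H82 NeuroD1 list by score (left) and of the H82 H3K4me3 list by the width of the overlapped region (right). Points are shares with exact 95% intervals. Every H82-only point lies below its shared counterpart, with 25.7% against 56.9% in the highest score bin.

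The H82 mark itself had close median widths and ranks under H82-only and shared regions. The best-scoring H82 H3K4me3 region under an H82-only region had a median width of 986 bp and a median percentile of 78.6 in its list, against 987 bp and 77.3 under shared regions. The mark was at least 2 kb wide at 99 of 439 H82-only regions (22.6%) and 148 of 693 shared ones (21.4%), a difference of 1.19 points (−3.67 to 6.24). It was among the highest-scoring 10% of its list at 28.2% and 29.6%, a difference of −1.34 points (−6.66 to 4.14). Where H524 had the mark, with or without that of H82, it ranked lower in the H524 list at H82-only regions. The median percentile of that H524 region was 61.6 (interval of the median 55.0 to 68.0), against 74.3 (69.4 to 78.4) at shared regions, while the median widths were 806.5 and 796 bp. With the mark in both lines, the median percentile was 64.4 (57.0 to 69.6) at 155 H82-only regions. It was 75.9 (69.8 to 79.0) at 372 shared ones.

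Seen from the mark, 446 of the 18208 H82 H3K4me3 regions held an H82-only NeuroD1 region, 720 held a shared one and 11 held both. H524 also listed 233 of the 446 (52.2%, 47.5 to 57.0), against a percent of 52.4 over all H82 H3K4me3 regions. Wide H82 H3K4me3 regions were in the H524 list more often than narrow ones, and those with NeuroD1 were wide. Those with an H82-only NeuroD1 region had a median width of 970.5 bp, and those without H82 NeuroD1 546 bp. At equal width the share was 52.2% for those with an H82-only region, 65.3% for those with a shared region and 63.0% for those without NeuroD1. Those with an H82-only region lay 10.8 points below those without H82 NeuroD1 (difference −10.8, normal 95% interval −15.0 to −6.66). In the narrowest of 4 bins, of 256 to 363 bp, H524 listed 8 of 63 H82 mark regions with an H82-only NeuroD1 region (12.7%). It listed 29.3% of those with a shared one and 27.0% of those without H82 NeuroD1. In the widest, of at least 1005 bp, the shares were 75.6%, 84.2% and 82.1%.

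The mark of the line that lacked it was often close by. Of the 284 regions with the mark in H82 alone, 94 (33.1%, 27.7 to 38.9) had an H524 H3K4me3 region within 1 kb, 162 (57.0%) within 10 kb and 217 (76.4%) within 50 kb. At 76 of them (26.8%) the H82 mark region itself met an H524 H3K4me3 region elsewhere along its length. For shared regions with the mark in H82 alone, 46.7% of 321 (41.2 to 52.4) had H524 H3K4me3 within 1 kb. Within 10 kb their share was 58.6% and within 50 kb 79.8%, close to those of the H82-only regions. The 284 regions with the mark in H82 alone overlapped H82 mark regions of 824 bp in the median, against 1418 bp for the 155 with the mark in both lines. The 155 were also the more deeply placed, with a median of 100% of their length on the mark, against 69.7% for the 284.

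In the 21 regions with the mark in H524 alone, H82 H3K4me3 was usually just beyond the edge. It lay within 1 kb of 15 of the 21 regions (71.4%, 47.8 to 88.7), at a median gap of 0.386 kb, and only 1 region was over 50 kb from it. The highest-scoring of the 21, chr21:43916297-43916622, scored 5.91 and was 17.7 kb from H82 H3K4me3. The next, chr16:11836612-11836977, scored 5.71 and lay 262 bp from it. The region at chr17:19015028-19015347 scored 5.28, was 92.5% covered by H524 H3K4me3 and lay 98 bp from the H82 mark. Those at chr6:26156610-26156972 and chr11:27739505-27739882 scored 4.92 and 4.07, with the H82 mark 113 and 458 bp away. The region chr4:37688205-37688664 was the farthest from H82 H3K4me3, at 139 kb.

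H82-only regions lay more squarely on the mark than shared ones. The whole region was covered by the mark of 1 line in 211 of 460 (45.9%, 41.2 to 50.5), against 258 of 758 shared regions (34.0%, 30.7 to 37.5), a difference of 11.8 points (6.16 to 17.5). Over all marked H82 NeuroD1 regions this percent was 38.5. The centre was on the mark in 337 (73.3%), against 66.2% of the shared regions and 68.9 percent of all marked ones. The centre lay at a median of 295 bp from that of the H82 mark region, against 375.5 bp for shared regions. On a scale where 0 is the centre of the mark and 1 its edge, these positions were 0.64 and 0.81. Only 14 H82-only regions (3.04%) touched 2 or more marked regions of 1 line, against 55 shared ones (7.26%). Within 4 bins of the H82 list by width the difference in whole coverage averaged 8.89 points, with 18.1 points (6.88 to 29.1) in the third bin and intervals that include 0 in the other three. Within the 4 score bins it averaged 7.07 points, and each of the 4 intervals included 0. The third score bin went the other way, at −2.13 points (−13.5 to 9.61). Against H524-only regions, of which 43.1% lay whole on the mark, the difference was 2.81 points (−1.99 to 7.68).

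Although no H524 NeuroD1 region overlapped them, many H82-only marked regions had such a region in the neighbourhood. The median distance was 14.8 kb (interval of the median 9.75 to 25.5), against 38.4 kb (33.2 to 43.7) for H82-only regions without the mark. Within 1 kb lay 77 of the 460 (16.7%, 13.4 to 20.5) and 110 of the 1328 unmarked regions (8.28%, 6.86 to 9.90), a difference of 8.46 points (4.94 to 12.4). With a score of at least 2 in all lists the medians were 29.0 kb (19.3 to 37.7) for the marked and 45.4 kb (38.4 to 50.3) for the unmarked regions, and the shares within 1 kb 14.7% and 6.60%. Without any region within 1 kb of H524 NeuroD1 the medians were 32.1 kb (23.8 to 39.6) and 46.7 kb (41.6 to 50.7). The density of NeuroD1 regions around each class was not adjusted for. The H82 mark region under an H82-only region was touched by H524 NeuroD1 elsewhere along its length in 50 of 439 cases (11.4%, 8.57 to 14.7). In those 50 cases both lines listed NeuroD1 on 1 H82 mark region, at different positions. This was no more frequent than over the H82 mark in general. Counted by mark region, H524 NeuroD1 lay on 49 of the 446 with an H82-only region (10.99%). It lay on 14.95% of those without H82 NeuroD1 and on 17.87% of all H82 H3K4me3 regions. By the rule, none of this overlap can fall on the H82-only region itself, and width was not adjusted for.

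**Figure D3:**
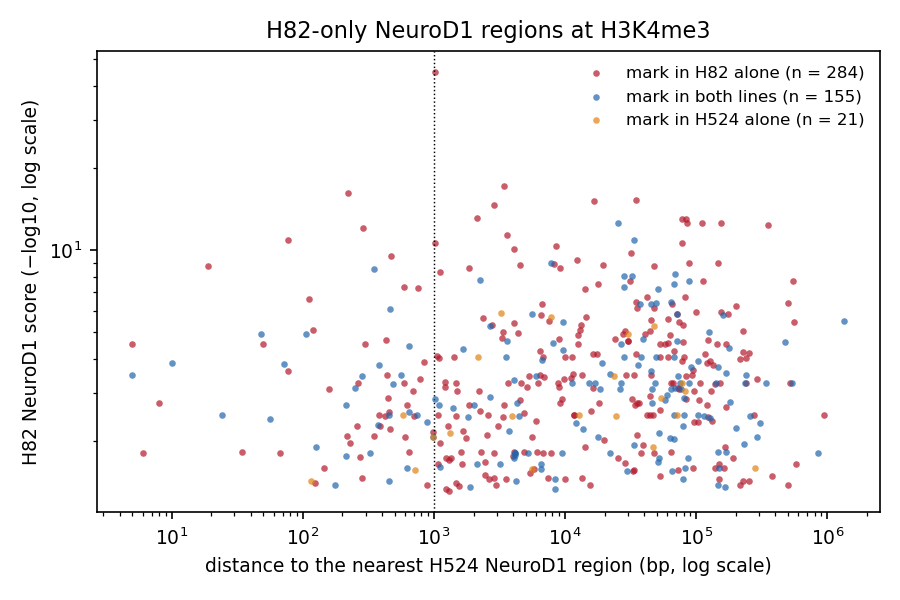
H82 NeuroD1 score (y axis, read as −log10, log scale) against the distance to the nearest H524 NeuroD1 region (x axis, bp, log scale) for the 460 H82-only marked regions, coloured by the line or lines that carry the mark. The dotted line is at 1 kb, and 77 regions lie at or within it.

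Some regions met or missed the rule by a few bases. The regions nearest to H524 NeuroD1 were at chr12:56132250-56132531 and chr8:124054223-124054618, both 5 bp away, and chr12:9600457-9600788, 6 bp away. Just outside, the marked regions at chr8:71314289-71314688, chr3:99535982-99536378 and chr13:21406645-21407270 overlapped H524 NeuroD1 by 3, 28 and 32 bp and counted as shared. On the side of the mark, the smallest overlaps were 1 bp at chr13:41345305-41345618, 5 bp at chr6:41040489-41040840 and 7 bp at chr6:26158072-26158457. Left out by a gap of 1, 2 and 5 bp were chr9:128003651-128003949, chr17:36452850-36453183 and chr10:14920495-14920871. The second of these scored 17.4, more than all but 1 of the regions kept. The lowest scores inside the rule were 1.31 at chr20:11874033-11874984 and 1.34 at chr13:25753024-25753608 and chr9:26947204-26947543.

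Of the 15 highest-scoring H82-only marked regions, 14 had H3K4me3 of H82 but not of H524, and 1 had both. First came chr8:128317870-128319415, 1.55 kb wide, with a score of 44.9 and rank 12 in the H82 list. It was followed by chr14:57226392-57227561, with 3 summits, a score of 17.1 and an H524 NeuroD1 region 3.40 kb away. The third, chr8:97605015-97606716, had 4 summits and scored 16.2. It lay 220 bp from H524 NeuroD1, and its mark, chr8:97605472-97606031, covered 32.9% of it. These 3 leading regions were all over 1 kb wide, well beyond the median of their class.

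Several high scores belonged to regions only partly on the mark. At chr19:16222214-16222729, a region with a score of 15.2 met a marked region of 287 bp over 19.8% of its length, and H524 H3K4me3 began only 25 bp away. At chr1:44115523-44115872 (score 12.5) the mark covered 10.6%, and at chr17:8534106-8534565 (score 12.3) 8.70%. The region at chr19:50323461-50323907 scored 13.1 and was 78.7% covered by a mark of low rank, 14093.

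Others lay deep inside an H82 mark region. The one at chr1:155661750-155662957 scored 14.7 and was 96.9% covered by an H3K4me3 region of rank 207, with H524 H3K4me3 1.94 kb and H524 NeuroD1 2.87 kb away. Another, chr17:3626837-3627264, scored 12.5 and was wholly inside a mark of 2.34 kb, chr17:3626133-3628468. There the nearest other H82 NeuroD1 region was 154264 bp away. The nearest H524 H3K4me3 was 168 kb and the nearest H524 NeuroD1 155 kb away, so both were missing over a long stretch. By contrast, chr12:2921640-2922180 (score 13.0) and chr20:16553962-16554276 (score 13.0) were wholly on H82 H3K4me3 and only 294 and 8 bp from the H524 mark. The remaining regions among the 15 were chr8:97621252-97623311 and chr8:97715565-97717345, with scores of 15.1 and 12.6, and chr1:35658602-35659223, with a score of 12.0.

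With the mark in both lines, the highest score was 12.5, at chr19:46195133-46195822, where the mark had rank 1509 in H82 and 12060 in H524. Next were chr12:56727564-56728074 (score 10.9, wholly on H82 H3K4me3) and chr1:211848801-211849357 (score 8.99). At the region on chromosome 1 the mark had rank 16451 in H82 and 2244 in H524. The H524 mark also had the higher place in its list at chr12:98909210-98909602 (score 8.51), with ranks of 8763 in H82 and 1440 in H524. There the region was wholly on H524 H3K4me3, and H524 NeuroD1 lay 348 bp away. The last, chr1:93250428-93250795, scored 8.16 and was 69.3 kb from H524 NeuroD1. NeuroD1 was thus listed in H82 alone at places whose mark was also listed, and at 2 of these 5 ranked higher, in H524.

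One of the 100 highest-scoring H82 H3K4me3 regions lay under 19 of the 460 regions, 12 with the mark in both lines and 7 in H82 alone. Over all 460 the mark was more often in H82 alone (61.7%) than in both lines (33.7%). The count for shared regions is not given here. The NeuroD1 scores of the 19 reached from 1.38 to 11.4 with a median of 3.90 (interval of the median 2.56 to 7.35), against 3.16 over all 460. In the highest score bin were 7 of the 19 (36.8%, 16.3 to 61.6), against 15.2% of the 460. The highest of them, chr8:128346576-128348459, scored 11.4 on a mark of 8.68 kb and rank 32. Of lower score were chr14:60192931-60193474, with a score of 3.90 on a mark of 5.88 kb and rank 25, and chr17:20775098-20775483, with a score of 2.56 on a mark of 8.66 kb and rank 66. At the first, H524 H3K4me3 was 95.9 kb away although H524 NeuroD1 was listed 831 bp away. At the second the distances were 19.3 kb and 451 bp. Shared in the mark but not in NeuroD1 were, for instance, chr17:16255696-16256049, on marks of rank 98 in H82 and 299 in H524, and chr14:23791190-23791617, on marks of rank 28 and 424. H524 NeuroD1 was 27.9 kb away from the region on chromosome 17 and 461 bp away from the region on chromosome 14. At chr2:70475496-70475961 the H82 mark had rank 71 and the H524 mark rank 42, and H524 NeuroD1 was 57.3 kb away.

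The regions were mostly scattered. Of the 460, 411 had no other of their class within 20 kb, and the remaining 49 formed 23 groups of at most 3. Another H82 NeuroD1 region of any kind lay within 20 kb of 142 regions (30.9%, 26.7 to 35.3), against 23.9% of H82-only regions without the mark, 25.9% of shared marked regions and a percent of 25.7 over the whole H82 list. The interval of the difference was 2.31 to 11.9 points from the unmarked regions and −0.169 to 10.3 points from the shared marked ones. A shared NeuroD1 region was within 20 kb of 95 of the 460 (20.7%), against 13.1% of H82-only regions without the mark. The share was 17.8% of shared marked regions and 16.2% over the whole H82 list. From the shared marked regions the difference was 2.84 points, with an interval that includes 0 (−1.65 to 7.54).

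The leading region belonged to a group on chromosome 8 that also held shared regions. From −8.64 to 92.0 kb of its centre, H82 listed 11 NeuroD1 regions, of which 6 were H82-only on the mark, 4 were shared on the mark and 1 was H82-only without it. The top entry of the H82 list, chr8:128310003-128314497, was among the shared ones. H82 listed 15 H3K4me3 regions there, covering 30.6 kb, and H524 listed 2, covering 0.974 kb. NeuroD1 of H524 was listed at 7 regions. Between the shared regions lay the H82-only regions at chr8:128319697-128320110, chr8:128340708-128341436, chr8:128344841-128345573 and chr8:128346576-128348459. The last 2 of these were on the same mark of 8.68 kb, with 19 summits. One further region followed at chr8:128409648-128410669. The stretch was chosen after its values were seen.

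**Figure D4:**
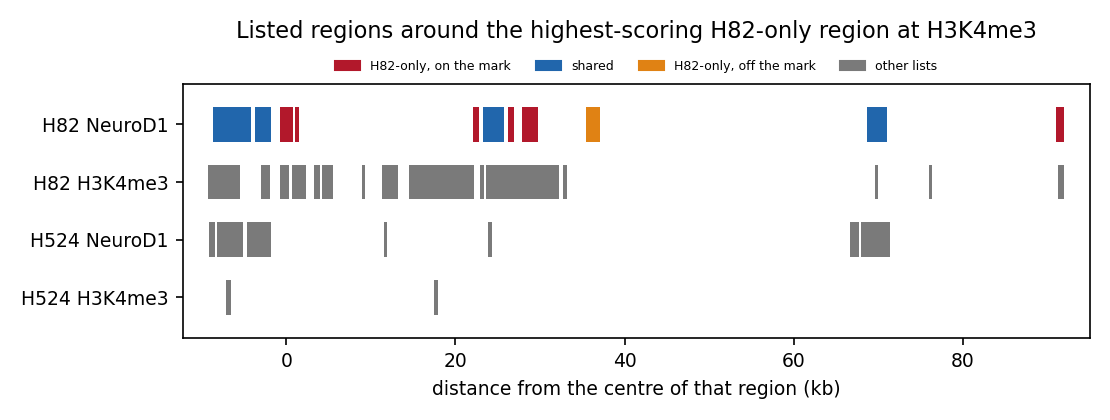
Listed regions of the 4 lists around the highest-scoring H82-only region at H3K4me3 on chromosome 8, by distance from the centre of that region (x axis, kb). Boxes are listed regions to scale. In the top row 6 regions are H82-only on the mark and 4 are shared, and H524 H3K4me3 has 2 regions where H82 has 15.

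Elsewhere on the chromosome, 3 H82-only marked regions among the 15 highest scores, the last starting 109.7 kb from the centre of the first, had no shared region between them. The 2 H524 NeuroD1 regions listed around them lay before the first, from −2.73 to −1.07 kb of its centre. H82 H3K4me3 was listed 8 times, 1 of them before the first region, and H524 H3K4me3 1 time. On chromosome 14 the region with the next-highest score, chr14:57226392-57227561, stood between shared ones, with 6 shared marked and 3 shared unmarked NeuroD1 regions of H82 around it and 15 NeuroD1 regions of H524. These stretches, too, were chosen after their values were seen. On chromosome 14 the NeuroD1 cluster was common to both lines and only some of its positions were listed in H82 alone. Also on that chromosome was chr14:58045381-58047683, with 3 summits, 2.30 kb wide and with a score of 8.95, whose mark of rank 850 was found in H82 alone and whose nearest H524 NeuroD1 was 88.2 kb away.

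The densest block of 1 Mb was on chromosome 17, from 7 to 8 Mb, with 8 H82-only marked regions among 19 H82 NeuroD1 regions, 8 of which were shared. In it, chr17:7145553-7146720 scored 8.07 and chr17:7155119-7155971 scored 6.34, both with the mark in both lines and 27.9 and 37.4 kb from H524 NeuroD1. Blocks with 6 were from 49 to 50 Mb on chromosome 19 and from 128 to 129 Mb on chromosome 8. Those with 5 were from 18 to 19 Mb on chromosome 19 and from 26 to 27 Mb on chromosome 6. The remaining blocks held at most 4, and 267 of 342 blocks with any held 1.

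Chromosome 1 held more of the H82-only marked regions than of the shared ones. It carried 88 of the 460 (19.1%, 15.6 to 23.0) and 91 of the 758 shared marked regions (12.0%, 9.78 to 14.5), a difference of 7.13 points (2.95 to 11.5). In the 4 score bins, from low to high, the difference was 1.15, 8.31, 8.59 and 11.5 points. The percent over all H82 NeuroD1 regions was 15.2, and it was 17.4% for H82-only regions without the mark. Put the other way, 49.2% of the 179 marked H82 NeuroD1 regions of chromosome 1 were H82-only, against 37.8% over all chromosomes. Chromosome 19 had the reverse pattern, with 29 H82-only (6.30%) and 83 shared regions (10.9%), a difference of −4.65 points (−7.71 to −1.34). On chromosome 10 were 12 H82-only and 3 shared regions (2.61% and 0.396%), a difference of 2.21 points (0.867 to 4.13). These were the chromosomes, of 23 compared without adjustment for their number, on which the interval of the difference excluded 0.

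Chromosomes 1 and 10 made up smaller parts of the H524 lists under both antibodies. Chromosome 1 held 15.2% of the H82 and 9.03% of the H524 NeuroD1 regions, and 11.8% of the H82 and 8.32% of the H524 H3K4me3 regions. For chromosome 10 the parts were 1.79% and 0.685% under NeuroD1 and 3.02% and 0.774% under H3K4me3. Chromosome 19 held 4.90% and 3.20% of the NeuroD1 regions and 5.77% and 10.3% of the H3K4me3 regions. The part of chromosome-wide differences between the lines in the H82-only class was not tested. The lower share on H524 H3K4me3 was present on chromosome 1 and on the other chromosomes alike, as given above.

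**Figure D5:**
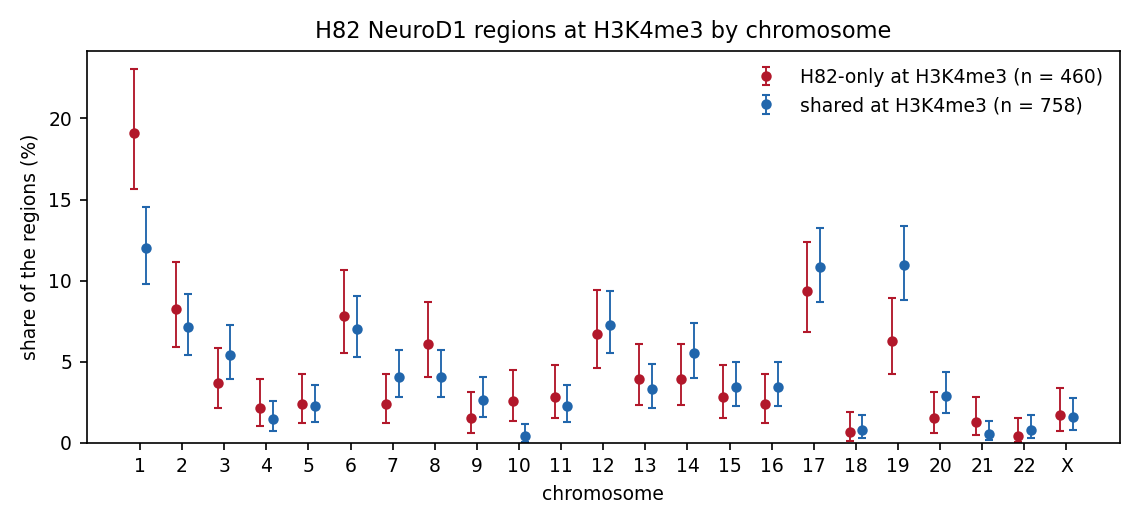
Share of the 460 H82-only and the 758 shared marked NeuroD1 regions of H82 on each chromosome (y axis, percent), with exact 95% intervals. Chromosome 1 holds 19.1% of the H82-only and 12.0% of the shared regions, and chromosome 19 holds 6.30% and 10.9%.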

How the data were processed

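Per the submitters' processing notes, the tools were MACS2 2.1.1, Bowtie 1.1.2, Trimmomatic 0.38, SAMtools 1.9, bcl2fastq 1.8.4, Picard 1.118, and ChIPseeker 1.18.0 in R 3.5.1, with hg19 as build. Settings and the use of input libraries are not stated there. The 4 deposited lists hold 1 library each. Their score, deposited by the authors without a unit, was taken as a −log10 q-value, since its lowest values lie just above the −log10 of 0.05, 1.30. Entries with the same interval were merged, keeping the highest score. Overlaps were computed in Python 3.11.15 (numpy 2.4.6, pandas 2.3.3, scipy 1.17.1, matplotlib 3.10.9), and tested on simulated data and against bedtools 2.31.1. Distances run between region edges, and percentiles by score within a list. Comparisons at equal width or score used 4 bins of the H82 lists, weighted to the H82-only marked regions.

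The regions, comparisons and lists were chosen with earlier results of these data known. Named regions are the 15 highest-scoring ones, the 5 highest of each mark class, examples from those on the 100 highest-scoring H82 H3K4me3 regions, and those nearest the limits of the rule. The loci, blocks and farthest region were picked after their values were seen. Planned gene names, start sites, E-boxes and base composition were not analysed, because a genome and annotation in hg19 were not used here. For the same reason no sequence is shown.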

Additional observations from a re-analysis of the deposited data

Results flagged for a closer look

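The share on chromosome 1 went opposite ways in H82 and H524 when single-line NeuroD1 regions at H3K4me3 were set against shared ones. It was higher by 7.13 points in the H82-only regions (2.95 to 11.5) and differed by −2.43 points in the H524-only regions (−4.93 to −0.225), 9.56 points apart. This was the 1 such case among 39 measures compared, and the difference between the lines was not tested. The shared regions of the 2 lists overlap each other, and 12.0% and 11.2% of the marked ones were on chromosome 1. These shares lie between those of the whole NeuroD1 lists, 15.2% in H82 and 9.03% in H524. The opposite directions are therefore not separate from that list-wide difference, and whether they go beyond it was not tested.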

How the results depend on the processing

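Under the alternatives, 151 values stayed within the interval of the main value, or within 1.5 times it for the count, 14 moved farther, and none changed direction. Merging touching regions left every value as it was, and those values are counted among the 151. Requiring 20% overlap put the centre on the mark in 80.4%. Excluding regions within 1 kb of H524 NeuroD1 left a share of 0 there by construction and a median distance of 32.1 kb. A score of at least 2 in all lists gave a median distance of 29.0 kb and a median score of 3.53, and for H82 NeuroD1 alone a median width of 429 bp and a median score of 3.55. With the mark of H82 only, the share with the mark in H524 alone was 0 by construction. The difference at equal width between H82 mark regions stayed at −10.8 points, also by construction. With H3K4me3 at or above the median score, 19.8% of H82-only regions were marked, 68.9% of them in H82 alone and 26.0% in both lines. The centre was then on the mark in 78.2% and the whole region in 54.0%. At equal width, H82 mark regions with an H82-only NeuroD1 region were in H524 less often than those without H82 NeuroD1 (difference −15.3 points). The difference from shared regions on H524 H3K4me3 ranged from −21.7 to −14.8 points. Alternatives for start sites, motifs and base composition were not run. No paired analysis was possible because each group has 1 library. Depth per library is unknown, so absence from a list is not absence of binding.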
